A study of Homo sapiens with 16 samples.

Results

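Large acetylated clusters that the Ewing sarcoma line TC-71 has and the line TC-32 does not have among its own largest were taken from the H3K27ac domains of each line. Domains no more than 12.5 kb apart were stitched on chromosomes 1 to 22 and X, and the 600 clusters with most acetylated bases were kept in each line. The clusters described here are the 364 of the 600 TC-71 clusters (60.7%) that overlap none of the 600 TC-32 clusters. The remaining 236 TC-71 clusters overlap a large TC-32 cluster and are called common, and 371 of the TC-32 clusters overlap no large TC-71 cluster and are called specific to TC-32. Since H3K27ac of both lines chose the clusters, its values here are a description and carry no test. The clusters were chosen by acetylated length and overlap, and no value of SMC1 or BORIS entered that choice.

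TC-71 and TC-32 are established lines of Ewing sarcoma, a tumour of bone or soft tissue that arises mostly in the young and that carries, in most cases, the fusion oncogene EWSR1-FLI1. Per the labels, TC-71 belongs to the post-chemotherapy phase and TC-32 to diagnosis, both were grown in RPMI-1640 medium with fetal bovine serum, and neither a drug nor an introduced genetic change is stated for either. Chromatin immunoprecipitation with sequencing was done with antibodies against H3K27ac, SMC1 and BORIS, with 2 samples per line and antibody and an input for each line, 16 samples in all. The deposited files are 6 peak lists, 1 per line and antibody, so replicate spread is unknown, the lines were not compared by a test, and each difference given below is one between 2 cell lines only.

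H3K27 acetylation is laid down by the acetyltransferases p300 and CBP at active promoters and enhancers. Dense runs of acetylated enhancers, often called super-enhancers, tend to lie near genes that define a cell's identity. Cohesin, of which SMC1 is a subunit, extrudes chromatin loops and is halted at many CTCF sites. BORIS, encoded by CTCFL, is a germline paralog of CTCF that some cancers express.

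On the chromosomes used, 26334 H3K27ac domains are listed for TC-71 against 36355 for TC-32. For SMC1 there are 18264 peaks in the TC-71 list against 32720 in the TC-32 list, and for BORIS 534 in TC-71 against 6 in TC-32. TC-71 therefore has 0.724 times as many domains and 0.558 times as many SMC1 peaks as TC-32, which bears on every count set between the lines below. Read depth is unknown from peak lists, and they hold no expression by which the label of a line could be checked. Intervals beside a share are exact 95% ones (Clopper-Pearson) for counting error alone, and clusters or peaks that lie close together are not independent of each other.

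The 364 clusters specific to TC-71 were broad but smaller than the common ones. Their acetylated sequence ranged from 8.97 to 75.6 kb with a median of 11.6 kb, against a median of 16.9 kb in common clusters. Their span, gaps included, had a median of 26.8 kb, against 36.5 kb in common clusters. A median of 5 domains made up a cluster, against 6 in common clusters, and 19 clusters specific to TC-71 were 1 unbroken domain. The single domains were about as strong in both groups. Within the TC-71 list their median fold enrichment over input, which is the authors' value, was 3.52 in clusters specific to TC-71 and 3.55 in common clusters, below the 3.81 of all TC-71 domains.

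The size limits of the lines differ, and this shapes the group. The 600th cluster has 8973 acetylated bases in TC-71 and 13265 in TC-32, so 233 of the 364 clusters are smaller than any cluster of the TC-32 set. Just inside the TC-71 limit are clusters at 5q11.2, 2p13.3 and 1q32.1 with 8.98, 8.98 and 8.97 kb. Just outside are clusters at 6p21.1, 8q12.1 and 8q24.21 with 8.97 kb each, the first of them tied with the last cluster inside and left out by its position. On the TC-32 side the nearest misses are 12p13.1 (chromosome 12, 12866792 to 12890757, hg19), 18q21.1 (chromosome 18, 44175540 to 44204646) and 11p15.4 (chromosome 11, 10421596 to 10440693). They meet TC-32 clusters of rank 601, 603 and 609. Of the 364 clusters, 114 (31.3%) meet a TC-32 cluster of at least 8973 bases, the TC-71 limit, and without them 250 clusters would be left.

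Most of these clusters were still partly acetylated in TC-32. TC-71 covered 5.13 Mb in them and TC-32 covered 2.35 Mb, and 40.5% of the TC-71 acetylated bases were acetylated in TC-32 too, against 79.7% in common clusters. No TC-32 domain at all lay in 32 of the 364 clusters (8.79%, interval 6.09 to 12.18%; 15.6% where only domains with a −log10 q of at least 5 were used), while 22.04% of all 16831 stitched TC-71 clusters, most of them small, had none. In a further 79 clusters (21.7%) up to 25% of the TC-71 acetylated bases were shared with TC-32, and in 90 (24.7%) over 25 to 50%. In the remaining 163 (44.8%) over 50% of the bases were shared. TC-32 covered at least as many bases as TC-71 in 33 of the clusters. Much of the group therefore differs in extent of acetylation and not in its presence.

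**Figure D1:**
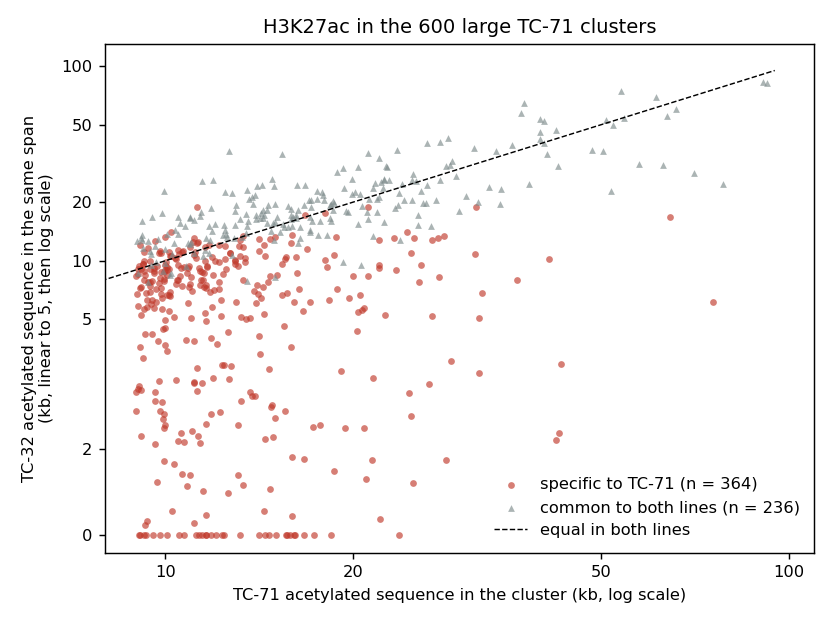
Each point is 1 of the 600 large TC-71 clusters, placed by the acetylated sequence of TC-71 in it (x axis, kb, log scale) and of TC-32 in the same span (y axis, kb, linear to 5 and log above). Circles are the 364 clusters specific to TC-71, triangles the 236 common ones, and the broken line marks equal values; 32 circles lie at 0 in TC-32 and 33 lie on or above the line.

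The largest clusters shared less of their acetylation with TC-32 than the smaller ones. In the 20 largest by acetylated bases, TC-71 covered 0.725 Mb and TC-32 0.157 Mb. The shared part of their TC-71 acetylated bases lay between 5.20 and 48.6%, with 14 clusters at 25% or less and 6 between 25 and 50%. These 20 held 27 SMC1 peaks in TC-71 and 48 in TC-32. Over the 131 clusters large enough to have entered the TC-32 set, 29.2% of the TC-71 bases were shared, against 52.5% over the 233 smaller ones. Size and sharing are tied here by the rule, because a small TC-71 cluster can be nearly all acetylated in TC-32 and still miss the TC-32 limit.

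The cluster with most acetylated bases was at 7p21.1 (chromosome 7, 18531310 to 18631312), where 17 TC-71 domains covered 75.6 kb of a 100.003 kb span, the widest reaching 26.4 kb. TC-32 had 6 short domains there with 6.17 kb in all. Genes are mentioned here only as textbook background for a band, since the annotation at hand is of another genome build and no overlap with a gene was tested. The band 7p21.1 holds TWIST1, a mesenchymal transcription factor, and HDAC9, a histone deacetylase. A second large cluster of the same band (chromosome 7, 16739454 to 16841757) held 21 TC-71 domains covering 42.8 kb and 1 TC-32 domain of 2.37 kb. The band also held 1 common cluster.

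At 1p13.3 (chromosome 1, 107682248 to 107821168) 24 TC-71 domains covered 64.4 kb, and 11 TC-32 domains covered 16.7 kb. At 10q25.3 (chromosome 10, 115599578 to 115688959) TC-71 covered 43.1 kb and TC-32 3.97 kb. At 8p12 (chromosome 8, 32404192 to 32494023), the band of the growth factor gene NRG1, 19 TC-71 domains covered 42.3 kb and a single TC-32 domain 2.197 kb. At 14q21.1 (chromosome 14, 42070519 to 42139093) the values were 36.7 kb in TC-71 and 7.96 kb in TC-32. TC-32 was acetylated over part of each of these stretches, with most bases at 1p13.3.

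Further clusters lay in bands of genes known from the nervous system. At 3p12.3 (chromosome 3, 77076799 to 77152574), the band of the SLIT receptor gene ROBO2, TC-71 covered 31.9 kb and TC-32 3.76 kb. At 4p15.31 (chromosome 4, 20298166 to 20340027), the band of the secreted guidance ligand gene SLIT2, 7 TC-71 domains covered 23.7 kb with no domain in TC-32. This is the largest of the 32 clusters without TC-32 acetylation. A neighbour in the same band (chromosome 4, 20369356 to 20434194) has 14 TC-71 domains covering 15.0 kb and again none in TC-32. At 12q21.2 a pair of adjoining clusters (chromosome 12, 79257165 to 79294678 and 79309151 to 79353018) covered 31.9 and 24.8 kb in TC-71, and 5.10 and 2.78 kb in TC-32. That band holds SYT1, a calcium sensor of synaptic vesicle release. These bands were singled out after their values were seen.

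The other clusters with no TC-32 domain ranged down to 9.06 kb. After 4p15.31 the largest were at 8q13.3 (chromosome 8, 72739311 to 72778906; 18.5 kb), 14q24.3 (chromosome 14, 76980926 to 77015888; 17.3 kb) and 6q13 (chromosome 6, 70544418 to 70580621; 16.7 kb). Next came 12q13.2 (chromosome 12, 54972612 to 54998613; 16.1 kb), 21q22.3 (chromosome 21, 43181959 to 43205121; 16.1 kb) and 10p12.1 (chromosome 10, 26013711 to 26046587; 15.8 kb). Another was at 3q26.33 (chromosome 3, 181425203 to 181447420; 11.6 kb), the band of the stem cell factor gene SOX2. Chromosome 8 holds 6 of the 32.

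**Figure D2:**
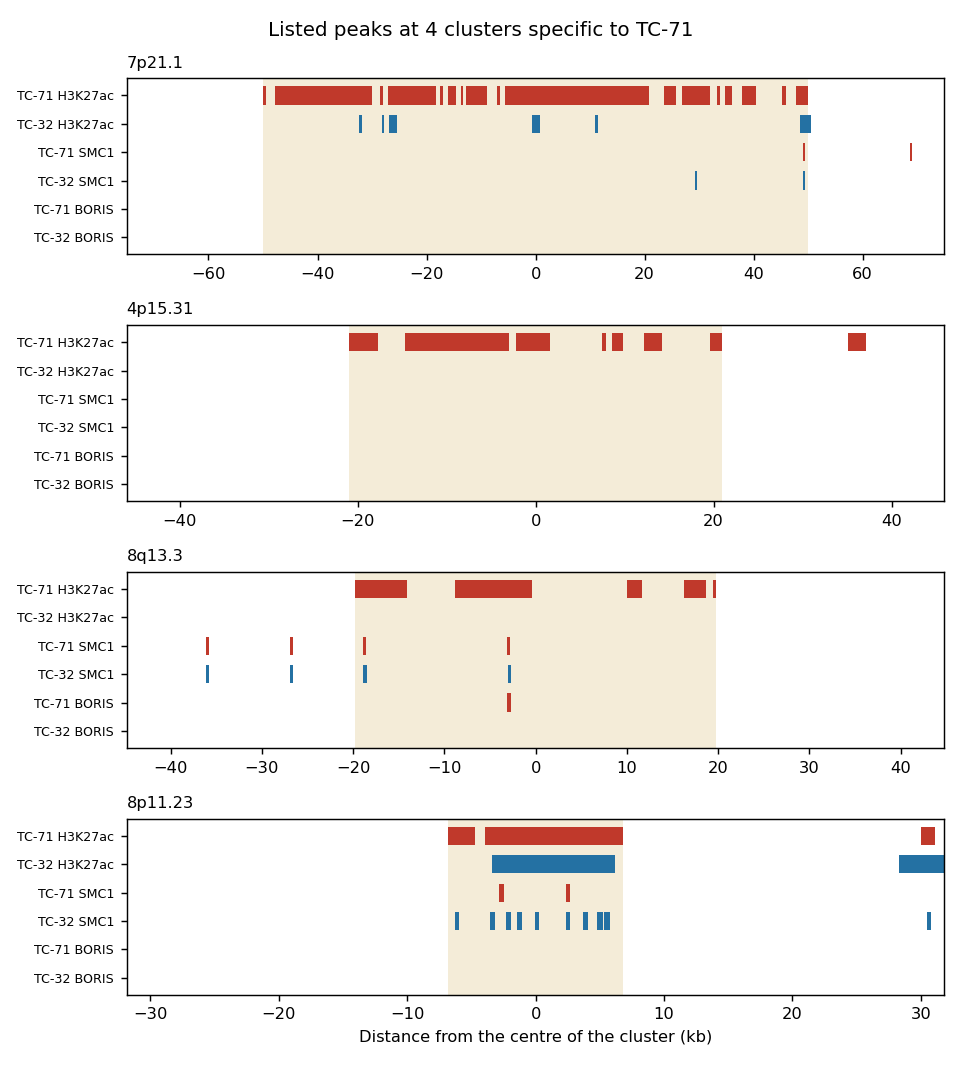
Listed peaks of both lines at 4 clusters specific to TC-71, each drawn to scale around the centre of the cluster (x axis, kb); the shaded span is the cluster, red is TC-71, blue is TC-32, and peaks under 0.35 kb are widened to that size. At 7p21.1 the 6 TC-32 domains are short, 4p15.31 and 8q13.3 have no TC-32 domain, 8q13.3 has SMC1 at the same places in both lines, and 8p11.23 has, within the cluster, 2 SMC1 peaks in TC-71 and 9 in TC-32.

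SMC1 marks cohesin, and its counts between the lines depended on the length of the SMC1 lists. As deposited, in the 364 clusters specific to TC-71 there were 292 SMC1 peaks in TC-71 and 568 in TC-32, a ratio of 0.514, near the 0.558 of the whole lists. With the TC-32 list shortened to the 18264 peaks of the TC-71 list, the same clusters held 292 peaks in TC-71 and 252 in TC-32, a ratio of 1.16 against 1.0 for the whole lists, so the direction turned. In the deposited lists a peak was listed in TC-71 in 198 clusters (54.4%, 49.1 to 59.6%) and in TC-32 in 265 (72.8%, 67.9 to 77.3%). In common clusters these shares were 67.4% for TC-71 and 90.7% for TC-32, and over all stitched TC-71 clusters 15.05% for TC-71 and 28.1% for TC-32. Both lines had SMC1 in 187 clusters specific to TC-71 (51.4%), TC-71 alone in 11 (3.02%), TC-32 alone in 78 (21.4%) and neither in 88 (24.18%). In common clusters both lines had it in 66.5%, TC-71 alone in 0.847%, TC-32 alone in 24.15% and neither in 8.47%. Over all stitched clusters both lines had it in 13.8%, TC-71 alone in 1.21%, TC-32 alone in 14.3% and neither in 70.7%.

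Counted cluster by cluster, TC-71 had more SMC1 peaks than TC-32 in 24 of the 364 (6.59%, 4.27 to 9.65%), against 1.6% of all stitched TC-71 clusters, most of which hold no SMC1, and 5.67% of the 600 large ones. TC-32 had more in 169 (46.4%, 41.2 to 51.7%), against 17.8% of all stitched clusters and 58.7% of the 600 large ones, and the numbers were equal in 171. Of these 171, 88 had SMC1 in neither line. The shares were different in the other large clusters. In common clusters TC-71 had more in 10 of 236 (4.24%, 2.05 to 7.65%) and TC-32 in 183 (77.5%, 71.7 to 82.7%). In clusters specific to TC-32, TC-71 had more in 4 of 371 and TC-32 in 289 (77.9%, 73.3 to 82.0%). The excess of TC-32 peaks was thus seen in fewer of the clusters specific to TC-71. The groups differ in size, with a median of 11.6 kb acetylated against 16.9 kb in common clusters and 17.3 kb in those specific to TC-32. They also differ in the share with SMC1 in neither line, at 24.18%, 8.47% and 12.4% in the same order. These shares were not adjusted for either. The ratio of TC-71 to TC-32 peaks followed the same order, at 0.514 in clusters specific to TC-71, 0.367 in common clusters and 0.266 in those specific to TC-32. In the 100 kb on either side the ratios lay closer together, at 0.630, 0.584 and 0.528 in the same order. None of these differences was tested.

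With the TC-32 SMC1 list shortened to equal length, TC-71 had more peaks than TC-32 in 20.1% of the clusters specific to TC-71. That setting drops TC-32 peaks only, and the same share was not counted for other clusters. The rise is therefore not known to be particular to the group. The order of the groups stayed, with a ratio of 1.16 in clusters specific to TC-71, 1.07 in common clusters and 0.815 in those specific to TC-32.

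**Figure D3:**
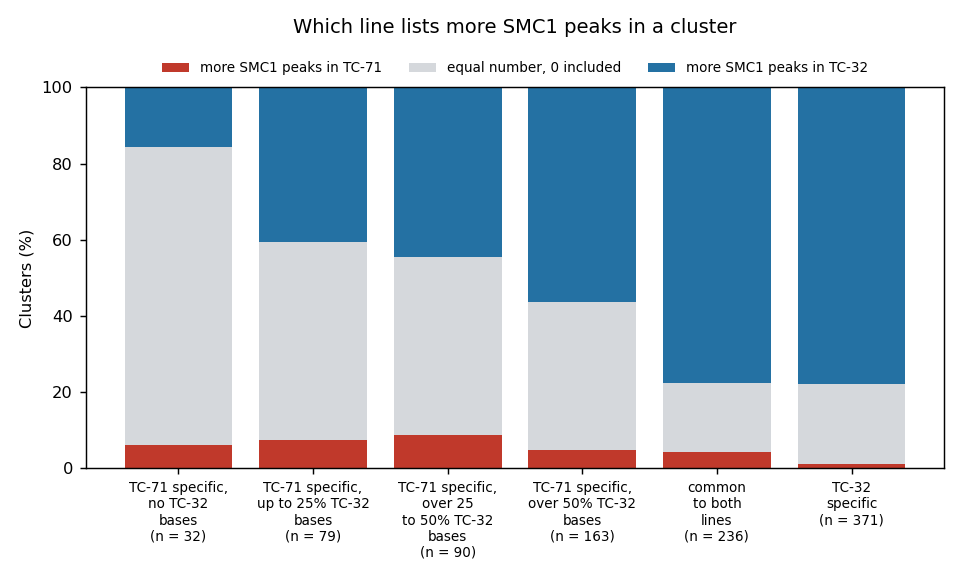
Share of clusters (y axis, %) with more SMC1 peaks in TC-71, equal numbers or more in TC-32. The bars are clusters specific to TC-71, split by the share of their TC-71 acetylated bases that are also acetylated in TC-32, then common clusters and clusters specific to TC-32. TC-32 has more in 15.6% of clusters with no TC-32 acetylation and in 77.5% of common ones. Equal numbers include clusters without SMC1, 13 of the 32 with no TC-32 acetylation and 20 of the 236 common ones.

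Within the group, the balance of SMC1 differed with the acetylation left in TC-32. In the 32 clusters with no TC-32 domain there were 21 SMC1 peaks in TC-71 and 25 in TC-32, a ratio of 0.840. With up to 25% of bases shared there were 57 in TC-71 and 101 in TC-32 (0.564). With over 25 to 50% there were 79 and 132 (0.598), and with over 50% there were 135 and 310 (0.435). The same classes of all stitched TC-71 clusters gave 0.813, 0.651, 0.581 and 0.391, with the highest and the lowest ratio in the same classes.

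Of the 32 clusters without any TC-32 domain, 19 (59.4%) had an SMC1 peak in TC-32. That share was 74.1% in the 332 clusters with a TC-32 domain, and 11.7% over all 3710 stitched TC-71 clusters without one, which are mostly small. In 15 of these SMC1 was listed in both lines and in 4 in TC-32 alone, while TC-71 alone had SMC1 in none (0) and neither line had it in 13. Of the 25 TC-32 SMC1 peaks in these clusters, 18 (72.0%, 50.6 to 87.9%) were also listed in TC-71, close to the 71.2% in all stitched clusters without TC-32 domains. Each line had 3 SMC1 peaks at 12q13.2 and 2 at 21q22.3. At 4p15.31 (20298166 to 20340027) neither line had one.

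Peak by peak, TC-71 SMC1 sites in these clusters were mostly TC-32 sites as well. Of the 292 TC-71 peaks, 247 (84.6%, 79.9 to 88.5%) overlapped a TC-32 peak, against 87.8% (83.1 to 91.6%) in common clusters and 90.3% of the whole list. In the highest rank quartile of the TC-71 list all 62 peaks were shared, as were all 50 in common clusters and 98.5% of the whole list. In the lowest, 76 of 111 were shared (68.5%, 59.0 to 77.0%), against 79.3% (69.6 to 87.1%) in common clusters and 79.2% of the whole list. In the other direction, 246 of the 568 TC-32 peaks (43.3%, 39.2 to 47.5%) were listed in TC-71, against 31.9% (28.4 to 35.6%) in common clusters and 25.3% (22.34 to 28.4%) in clusters specific to TC-32. The share was 41.5% over all stitched TC-71 clusters and 50.3% over the whole TC-32 list, so it was not raised above the list. With the TC-32 list shortened to equal length the share was 78.6% in clusters specific to TC-71, against 74.7% of the whole list. It was 70.7% in common clusters and 64.4% in those specific to TC-32.

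Rank in the list moves with that order. The median TC-32 SMC1 peak stood at percentile 36.5 of its list in clusters specific to TC-71, at 30.6 in common clusters and at 26.2 in those specific to TC-32. Within rank quartiles the order of the 3 groups was the same, but the intervals of clusters specific to TC-71 and of common clusters overlapped in each. From the lowest to the highest quartile the share also listed in TC-71 was 9.05%, 29.1%, 71.4% and 96.5% in clusters specific to TC-71. In common clusters it was 6.05%, 24.7%, 64.7% and 93.5%, and in those specific to TC-32 it was 3.27%, 15.2%, 51.5% and 89.9%. In the whole TC-32 list it was 10.8%, 33.7%, 65.3% and 91.5%.

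**Figure D4:**
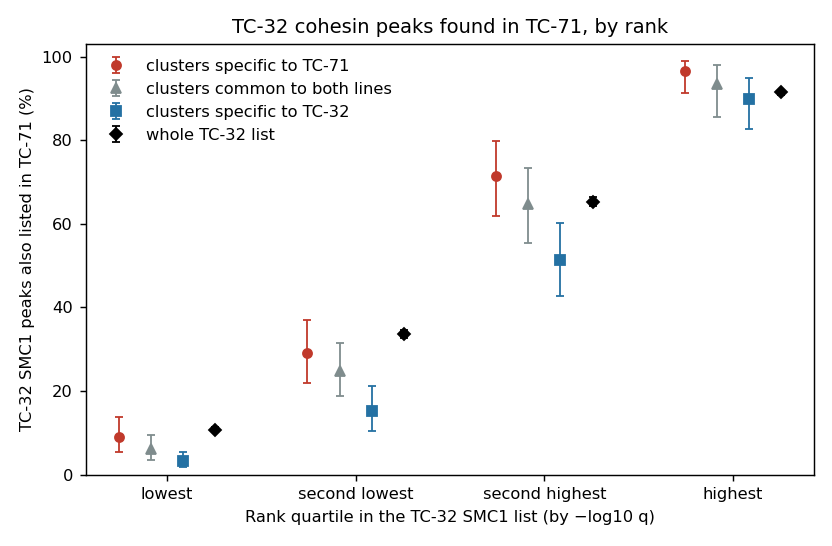
Share of TC-32 SMC1 peaks that are also listed in TC-71 (y axis, %) by rank quartile of the TC-32 list (x axis), for peaks in clusters specific to TC-71, common clusters, clusters specific to TC-32 and the whole list; bars are exact 95% intervals that cover counting error only. The share climbs with rank from 9.05% to 96.5% in clusters specific to TC-71, and lies lowest in clusters specific to TC-32 in each quartile.

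SMC1 sat mainly inside the acetylated domains of the clusters. Of the summits within clusters specific to TC-71, 240 TC-71 summits lay in a TC-71 domain and 47 in the gaps between domains, which is 46.8 per Mb in domains and 7.85 per Mb in gaps. For TC-32 summits the numbers were 484 in the same TC-71 domains and 78 in the gaps, or 94.3 and 13.0 per Mb. In common clusters TC-71 summits reached 36.8 per Mb in domains and 11.16 per Mb in gaps. TC-32 summits there reached 111.7 per Mb in the TC-71 domains and 20.3 per Mb in gaps. In domains, clusters specific to TC-71 were thus denser than common ones in TC-71 summits and less dense in TC-32 summits.

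Single clusters could go against the general balance by small numbers. SMC1 was listed in TC-71 alone in 11 clusters, with at most 2 peaks each. The largest excess of TC-71 was 2 peaks. It was seen at 8q23.3 (chromosome 8, 112315776 to 112390615), with 2 peaks in TC-71, 0 in TC-32 and 22.1 kb acetylated in TC-71 against 0.372 kb in TC-32. It was also seen at 4p15.2 (chromosome 4, 25493660 to 25504776) and 13q33.3 (chromosome 13, 110064675 to 110081221), each with 2 in TC-71 and 0 in TC-32, and at 19q13.2 (chromosome 19, 40645677 to 40671561) with 3 in TC-71 and 1 in TC-32. In the other direction the differences were wider. At 8p11.23 (chromosome 8, 37548585 to 37562262) there were 2 SMC1 peaks in TC-71 and 9 in TC-32. At 4q28.3 (chromosome 4, 134067334 to 134082974) there were 0 in TC-71 and 7 in TC-32, although TC-71 covered 14.5 kb and TC-32 10.6 kb there. At 1p13.3, second in acetylated bases, there were 3 in TC-71 and 8 in TC-32.

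BORIS was rare in these clusters. A TC-71 BORIS site lay in 15 of the 364 (4.12%, 2.32 to 6.71%), 1 site in each, against 1.87% of all stitched TC-71 clusters, 5.5% of the 600 large ones and 18 of 236 common clusters (7.63%, 4.58 to 11.8%). Per Mb of TC-71 acetylated sequence there were 2.92 sites in clusters specific to TC-71, 4.18 in common clusters and 7.59 over all stitched clusters. None (0) of the 20 largest clusters held a BORIS site, and 1 of the 32 without TC-32 acetylation did. Of the 15 sites, 15 lay in a TC-71 domain and 11 in a TC-32 domain, 12 at SMC1 in TC-71 and 12 at SMC1 in TC-32. The clusters are made of TC-71 domains, so the first of these counts is partly set by the rule. The same counts were not made for the other TC-71 BORIS sites, so no difference from them is stated. The median fold enrichment of the 15 sites, 6.13, was near the 5.98 of the TC-71 BORIS list.

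The strongest of these BORIS sites was at 2q31.2 (chromosome 2, 178128226 to 178128435; fold 10.01), followed by a pair at 19q13.2 (chromosome 19, 41858480 to 41858635; fold 9.05, and 42363745 to 42363860; fold 8.02). The 2q31.2 site lay at SMC1 in both lines, and the 19q13.2 sites at SMC1 in neither. At 8q13.3 the site (chromosome 8, 72756145 to 72756237; fold 3.99) lay at SMC1 in both lines and in a domain of TC-71 alone. A site at 7q21.13 (chromosome 7, 89783662 to 89783754; fold 5.38), the band of the membrane protein gene STEAP1, was acetylated in both lines. The weakest was at 8q24.21 (chromosome 8, 128750064 to 128750179; fold 2.36). TC-32 BORIS was listed in 1 of these clusters, at 11q12.3 (chromosome 11, 62609088 to 62609252; fold 2.85).

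The clusters were spread over all chromosomes used, but unevenly. Chromosome 6 held 34, chromosome 8 33, chromosome 1 29 and chromosome 3 28, while chromosome 15 held 3, chromosome 21 2 and chromosome 22 1. As a share of the large TC-71 clusters of a chromosome, clusters specific to TC-71 made up 28 of 32 on chromosome 3 (87.5%, 71.01 to 96.5%) and 33 of 46 on chromosome 8 (71.7%, 56.5 to 84.01%). They made up 3 of 11 on chromosome 15 (27.3%, 6.02 to 60.97%) and 6 of 18 on chromosome 16 (33.3%, 13.34 to 59.0%). The share over all chromosomes, 60.7%, lay inside the intervals of chromosomes 8 and 15 and outside those of chromosomes 3 and 16. Chromosome 8 did not stand out by this share, which was higher on chromosomes 5 and 12 as well as on chromosome 3. Chromosome 8 had the highest ratio of TC-71 to TC-32 domains of all chromosomes in the lists, at 0.867 against 0.724 over all, and its part in the count was not tested. Without chromosome 8, 331 clusters remain, with a ratio of TC-71 to TC-32 SMC1 peaks of 0.512 and 41.7% of bases shared. By Giemsa staining, 50.3% (45.02 to 55.5%) of clusters specific to TC-71 lay in light bands, against 55.1% (48.5 to 61.5%) of common ones.

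**Figure D5:**
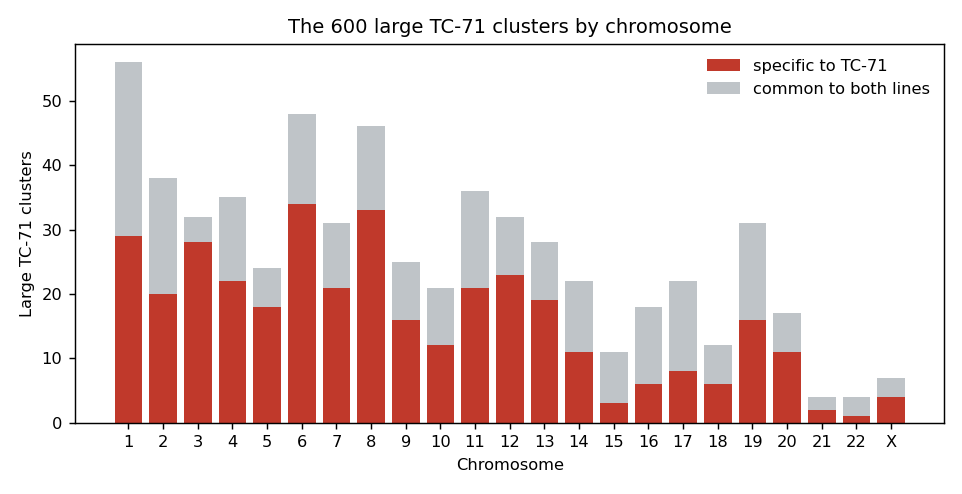
Number of large TC-71 clusters (y axis) on each chromosome (x axis), with those specific to TC-71 in red at the base of each bar and the common ones in grey above; chromosomes are not equally long. Chromosome 6 has 34 clusters specific to TC-71 and chromosome 8 has 33, while chromosomes 15, 21 and 22 have 3, 2 and 1.

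Of the 364 clusters, 171 (47.0%) lay in 75 runs whose neighbours are within 1 Mb. The same count was not made for the other large clusters, so it is not known to be particular to the group. The run with most clusters was one of 5 at 19q13.2 (chromosome 19, 40645677 to 42388993), with 57.3 kb acetylated in TC-71 and 44.5 kb in TC-32. This run had 9 SMC1 peaks in TC-71 and 5 in TC-32, against the general balance. Chromosome 19 had the highest ratio of TC-71 to TC-32 SMC1 peaks of any chromosome, at 0.762, and its part in this was not tested. At 11q13.4 a run of 3 (chromosome 11, 74093490 to 75063443) covered 54.1 kb in TC-71 and 6.97 kb in TC-32, with 4 SMC1 peaks in each line. At 8q23.3 a run of 3 (chromosome 8, 112315776 to 112676710) covered 48.4 kb in TC-71 and 7.65 kb in TC-32.

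A run of 3 at 8q24.21 (chromosome 8, 128744883 to 129343372), the band of the MYC oncogene, covered 84.0 kb in TC-71 and 21.8 kb in TC-32, with 8 SMC1 peaks in TC-71 and 7 in TC-32. Its largest cluster (chromosome 8, 128863043 to 129013785) was made of 31 TC-71 domains covering 41.2 kb, with 10.2 kb in TC-32 and no SMC1 peak in either line. No domain in it exceeded a fold enrichment of 2.55, the lowest such value of all 364 clusters, whose median is 5.82. The neighbouring cluster (chromosome 8, 128744883 to 128779504) was smaller, with 14.04 kb in TC-71 and 7.54 kb in TC-32, and held 6 SMC1 peaks in each line. With 2 clusters farther off, 8q24.21 held 5 clusters specific to TC-71, as did 19q13.2. Common clusters numbered 3 at 8q24.21 and 2 at 19q13.2.

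Bands of genes with a textbook role in Ewing sarcoma or in neural crest and mesenchymal development were set out in a list of 27 genes in 26 bands, chosen with earlier results of these data known. Of these bands 13 held a cluster specific to TC-71 and 12 a common one. For comparison, 243 of the 851 bands of these chromosomes (28.6%) held a cluster specific to TC-71. Bands differ in length and a band holds many genes, so this is no statement about the genes named. For EWSR1-FLI1 targets, the cluster at Xp21.2 (chromosome X, 30319709 to 30331573), the band of NR0B1, covered 11.9 kb in TC-71 and 10.4 kb in TC-32, with 1 SMC1 peak in TC-71 against 5 in TC-32. The 3 clusters at 7q21.13, the band of STEAP1, covered 39.1 kb in TC-71 and 14.9 kb in TC-32. The cluster at 16p12.2, the band of the kinase gene PRKCB, covered 24.6 kb in TC-71 and 3.29 kb in TC-32.

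Among developmental regulators, the 2 clusters at 14q32.2, the band of the zinc-finger gene BCL11B, covered 30.02 kb in TC-71 and 4.86 kb in TC-32. The cluster at 14q22.3, the band of the homeobox gene OTX2, covered 13.07 kb in TC-71 and 2.55 kb in TC-32. The 2 clusters at 6p21.1, the band of the osteoblast factor gene RUNX2, covered 31.9 kb in TC-71 and 19.2 kb in TC-32. At 2p25.1, the band of ID2, the single TC-71 domain of 10.4 kb was acetylated in TC-32 over its whole length, and SMC1 had 1 peak in TC-71 against 5 in TC-32. The cluster at 7q36.1, the band of the histone methyltransferase gene EZH2, covered 13.7 kb in TC-71 and 5.09 kb in TC-32. The 3 clusters at 6p22.3, the band of the Polycomb cofactor gene JARID2, covered 30.8 kb in TC-71 and 7.13 kb in TC-32. Some listed bands held clusters of both groups. Common clusters numbered 4 at 14q32.2, 3 at 8q24.21 and 2 each at 7q21.13 and 6p22.3. The bands 16p12.2 and 7p21.1 held 1 common cluster each. The bands of GLI1, CCND1, CAV1, PAX3, SOX9 and SOX10 held common clusters but none specific to TC-71. The bands of FLI1, EWSR1, NKX2-2, TBX3, MEIS1 and IGFBP3 held no large TC-71 cluster of either group.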

How the data were processed

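Formaldehyde-crosslinked, sonicated chromatin was immunoprecipitated, per the labels' protocols. Build hg19 and the tools MACS2 2.1.1, STAR 2.5.1b, deepTools 2.2.4, SAMtools 1.3.1 and Picard come from the submitters' processing notes, which give them no role here; the settings and any pooling of replicates were not given in the sources used here. The deposited lists give per peak a score, a fold enrichment over input, and −log10 values of p and q. These are the authors' values and served only to describe, rank or filter within a list. Peaks with several summits were counted once, with the highest −log10 q.

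Overlap meant at least 1 bp. Ties in size were broken by position. Coordinates are hg19, counted from 1; bands came from circlize 0.4.16. Cluster code was tested on simulated lists. Named clusters are the 20 largest, the 10 largest without TC-32 domains, those with BORIS, those with the widest SMC1 differences (10 and 5) and those nearest the limits (3 each), of which a part is given. The clusters and lists were chosen with earlier results of these data known. Rank quartiles, a common minimum size, and runs of clusters were added after seeing the data. Alternatives were other stitching gaps, set sizes, rankings, thresholds and list lengths. Code ran in Python 3.11.15 with scipy 1.17.1, pandas 2.3.3, matplotlib 3.10.9 and numpy 2.4.6. No sequence was read, since no hg19 genome was at hand. One band of the gene list is counted but not reported singly here.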

Additional observations from a re-analysis of the deposited data

How the results depend on the processing

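No paired analysis was possible because each list stands for both samples of a line and antibody, and no replicate could be left out either. Of 63 alternative values, 47 stayed within 1.5 times the main count or within the interval of the main share, and 16 moved. The number of clusters specific to TC-71 moved by construction to 186 with 300 and to 590 with 1000 clusters per line. The share of them without a TC-32 domain moved to 15.6% (56 of 358) with a −log10 q of at least 5. With the same minimum size in both lines it was 12.8% (32 of 250), the same number over fewer clusters specific to TC-71. The share of their acetylated bases also acetylated in TC-32, which has a narrow counting interval, was 42.5% with stitching at 5 kb, 40.4% at 20 kb, 41.2% with 300 clusters and 40.6% with 1000. It was 41.5% with ranking by length times fold, 43.6% with a −log10 q of at least 5, 36.4% with the TC-32 domain list shortened to the TC-71 length, 41.8% with 50% of the cluster covered, and 28.7% with the same minimum size. With the TC-32 SMC1 list shortened, TC-71 had more SMC1 peaks in 20.1% of the clusters, the ratio of TC-71 to TC-32 peaks was 1.16, and 78.6% of TC-32 peaks in them were listed in TC-71, since that setting drops TC-32 peaks only. The same minimum size and the settings for SMC1 sharing were chosen after seeing the data. The BORIS share stayed within its interval under each alternative run. Peak lists give no depth, so a domain or peak not listed in a line may be under its detection limit.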
